A study of Mus musculus with 18 samples.

Results

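The miR-99/100 family of microRNAs (miRNAs) was followed through small RNA libraries of mouse NIH/3T3 cells, an established line of embryonic fibroblasts. Its 6 mature members are mmu-miR-99a-5p, mmu-miR-99a-3p, mmu-miR-99b-5p, mmu-miR-99b-3p, mmu-miR-100-5p and mmu-miR-100-3p, of 1907 mature miRNAs in the deposited table. The 6 rows were taken by name, and the family was chosen by measured values of these libraries, because miR-99a-5p and miR-100-5p differ little in sequence and lie apart after immunoprecipitation (IP). Values of IP against input are therefore given as a description, with no test. RNAs were sequenced either directly (input) or after IP using an antibody against pseudouridine (Ψ), the isomer of uridine. The labels give a column selection of RNAs under 200 nt, and the study's IP method adds a gel selection of RNAs of miRNA length, which the labels of these libraries do not mention. Wild-type (WT) cells were compared with cells 3 days (KD3) and 6 days (KD6) after knockdown of Pus1, which encodes a Ψ synthase. All cells are NIH/3T3, there were 3 replicates named A, B and C in each of the 6 groups, and there are 18 libraries in all. The method of knockdown and a control treatment of the WT cells are not given in the sources used here, and neither is whether replicates were separate cultures. The p-values below measure the spread between these libraries, which may be technical.

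A miRNA gene is transcribed as a long primary transcript, from which a hairpin is cut by Drosha and then a duplex of its 5p and 3p arms by Dicer. Usually 1 arm is kept by an Argonaute protein as the guide, while the other, the passenger, is degraded. The guide finds its target mRNAs mainly through the seed, which runs from base 2 to base 8. The miR-99/100 family is known for its conserved seed, for targets in the mTOR and insulin-like growth factor pathways, and for genes that lie in clusters with let-7 and miR-125 genes. Ψ is made from uridine after transcription, so each uridine of a member is a position at which it could occur. The IP reports on whole molecules and places no Ψ at a base.

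The mature sequences come from RefSeq (GRCm38.p6), in which all 6 members were found. They are shown because the family is defined by its seed and because its 2 most similar members behaved differently in the IP. The seed is in capitals.
miR-99a-5p: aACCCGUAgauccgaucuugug
miR-100-5p: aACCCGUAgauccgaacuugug
miR-99b-5p: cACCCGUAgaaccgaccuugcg
miR-99a-3p: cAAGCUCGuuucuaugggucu
miR-99b-3p: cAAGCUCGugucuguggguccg
miR-100-3p: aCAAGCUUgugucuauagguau
The 3 members of the 5p arm share the seed ACCCGUA, and no other of the 1679 mature miRNAs in that table has it. The seed AAGCUCG is shared by miR-99a-3p and miR-99b-3p alone, and miR-100-3p has a seed of its own. With positions counted from 1 at the 5′ end, miR-99a-5p differs from miR-100-5p by the single substitution A16U among 22 bases. miR-99b-5p differs from miR-100-5p by 4 substitutions, which are A1C, U11A, A16C and U21C. All these differences lie outside the seed. The uridines number 6 in miR-99a-5p, 5 in miR-100-5p and 3 in miR-99b-5p. They number 8 in miR-99a-3p, 6 in miR-99b-3p and 8 in miR-100-3p. Uridines 7, 18 and 19 are common to the 5p members, and position 16, where miR-99a-5p carries the extra uridine, is the only base that separates it from miR-100-5p.

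The hairpins of the nearly identical pair show how far the genes differ outside the 5p arm, with both mature arms in capitals.
Mir99a: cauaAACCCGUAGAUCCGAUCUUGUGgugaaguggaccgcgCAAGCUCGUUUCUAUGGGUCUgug
Mir100: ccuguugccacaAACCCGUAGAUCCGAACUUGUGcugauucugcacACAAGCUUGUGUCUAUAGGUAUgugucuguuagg
Mir99a lies on the plus strand at chr16:77598936-77599000 (GRCm38), in an intron of its host transcript Mir99ahg, with an intron of Gm11146 on the opposite strand. Mirlet7c-1, which gives let-7c-5p, begins 657 bases away on the same strand, and Mir125b-2 lies 47273 bases away. Mir100 lies at chr9:41531425-41531504 on the plus strand, in introns of the noncoding genes 3110039I08Rik and Gm49317, and overlaps an exon of Gm48742 on the minus strand. Its neighbours are Mirlet7a-2 at 5212 bases and Mir125b-1 at 50422 bases. Mir99b lies at chr17:17830188-17830257 on the plus strand, in an intron of the protein-coding gene Spaca6, with Mirlet7e 95 bases and Mir125a 555 bases away. Each member had 1 row in the table, and its mature start there was the start in RefSeq.

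Depth ran from 241109 mapped reads in the KD6 input of replicate A to 15099781, and the next lowest library held 3989031. The shallow library is in the KD6 input group. Most share, ratio and fitted results of the members that rest on it are also given without it. The KD6 ranks, the KD6 gaps of other nearly identical pairs and the correlations that use inputs are given only with it. So are the KD6 log2 ratios of IP to input of the single miRNAs compared with the members. Reads outside miRNA rows made up between 5.47% and 38.2% of mapped reads, with the higher shares in IP libraries. Levels below are therefore shares of the reads assigned to miRNAs, a scale on which a miRNA can rise because others fall. The 7 miRNAs listed as fibroblast markers were all present and summed to between 43.0% and 59.7% of miRNA reads in the inputs, and to between 8.30% and 15.3% in the IP. Blood markers (4 listed) reached at most 0.00014% of an input, epithelial markers (3 listed) 0.00018% and embryonic stem cell markers (4 listed) 0.00001%, with miR-291a-3p and miR-295-3p at 0 in all libraries. The liver marker miR-122-5p reached 0.00846%. The 2 neuronal markers summed to between 0.301% and 0.366% of the inputs, nearly all of it miR-9-5p, while miR-124-3p had at most 8.1 counts in a library. In bulk RNA such as this, fewer molecules in each cell and fewer cells that hold a miRNA cannot be told apart.

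The family took up 9.53% ± 0.289 (SD, n = 3) of miRNA reads in the WT input, 7.79% ± 0.384 in the KD3 input and 7.25% ± 0.155 in the KD6 input. After IP its share was 14.1% ± 0.972 in WT, 11.5% ± 1.39 in KD3 and 6.62% ± 0.697 in KD6. Nearly all of this came from miR-99b-5p and miR-100-5p, which were 57.4% and 35.4% of family reads in the WT input. In the WT IP these proportions were 70.5% and 27.5%. miR-99a-5p supplied 5.37% ± 0.312 of family reads in the WT input and 0.549% ± 0.00720 in the WT IP. It supplied less in the IP of KD3 too, from 7.83% ± 0.147 to 0.784% ± 0.114, and in KD6, from 6.49% ± 1.69 to 0.537% ± 0.101. The family had a mean of 7.16% in the KD6 input without the shallow library, and miR-99a-5p supplied 7.46% of it.

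**Figure D1:**
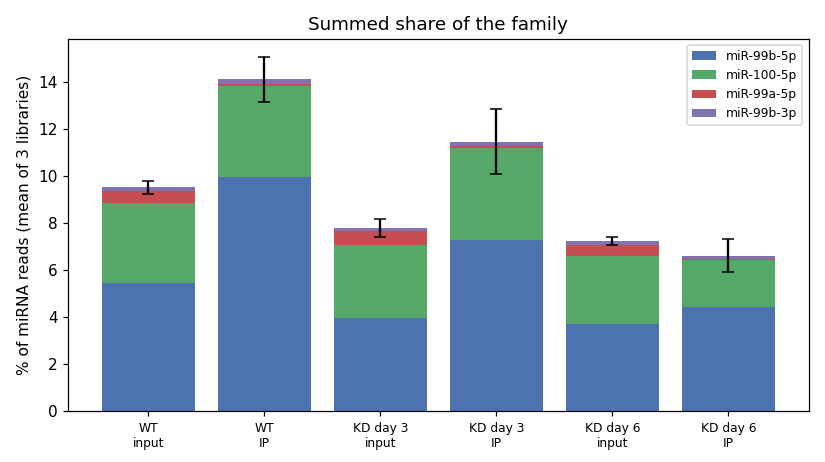
Summed share of the family in miRNA reads (y axis, percent, mean of 3 libraries per group), stacked by member, with the SD of the sum as error bars and both rare 3p arms too small to draw. The stack stands at 9.53% in the WT input and 14.1% in the WT IP, and the band of miR-99a-5p nearly vanishes in each IP group.

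Within every input group the order of the 4 abundant members was miR-99b-5p, miR-100-5p, miR-99a-5p, miR-99b-3p, and no neighbours in that order overlapped. Within every IP group miR-99a-5p and miR-99b-3p had changed places, again without overlap. miR-99b-5p ranked between 4 and 6 among all miRNAs of an input library, and miR-100-5p ranked 6 or 7. miR-99a-5p ranked between 23 and 26 in inputs and between 54 and 83 in IP libraries. The passenger arm miR-99b-3p ranked the other way in WT, from between 53 and 56 in inputs to between 34 and 42 in the IP.

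miR-99a-5p, the guide arm of Mir99a, was lower after IP in every library of each condition. Its shares in the WT inputs were 0.487%, 0.525% and 0.521% in replicates A, B and C, against 0.0845%, 0.0764% and 0.0720% in the WT IP. Every WT IP library lay far below every WT input library, and the group means differed by 6.58-fold. In KD3 the inputs stood at 0.594%, 0.647% and 0.590% and the IP libraries at 0.104%, 0.0797% and 0.0846%, a difference of 6.83-fold. In KD6 the inputs stood at 0.338%, 0.549% and 0.519% and the IP libraries at 0.0271%, 0.0347% and 0.0457%, or 13.1-fold. The lowest input value is that of the shallow library, and it still lay above every IP value. Without that library the KD6 difference was 14.9-fold. Ordered by level over the 6 groups, KD3 input stood highest, WT and KD6 input overlapped below it, KD3 and WT IP overlapped again, and KD6 IP stood lowest with no overlap with its neighbour.

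miR-100-5p, the guide arm of Mir100, had a share after IP that overlapped that of the input in WT, was 1.27-fold higher in KD3 and was 1.45-fold lower in KD6. The WT inputs held 3.44%, 3.41% and 3.28%, and the WT IP libraries 4.22%, 3.30% and 4.13%, so the groups overlapped. In KD3 the inputs held 3.00%, 3.19% and 3.07% and the IP libraries 4.37%, 4.14% and 3.23%, all of the latter higher. In KD6 the order turned, with 3.18%, 2.72% and 2.81% in the inputs and 1.57%, 2.18% and 2.26% in the IP. The KD6 IP was 1.38-fold lower without the shallow library, which had the 3.18%. Over the 6 groups the KD3 IP, WT IP and WT input overlapped at the top, the KD3 and KD6 inputs overlapped below them, and the KD6 IP lay apart at the bottom.

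miR-99b-5p, the most abundant member, was higher after IP in all conditions as a share of miRNA reads. The WT inputs held 5.57%, 5.62% and 5.23% and the WT IP libraries 10.7%, 10.4% and 8.85%, a mean ratio of 1.82. In KD3 the inputs held 3.75%, 4.25% and 3.91% and the IP libraries 7.69%, 7.81% and 6.38%, a ratio of 1.84. In KD6 the inputs held 3.74%, 3.74% and 3.69% and the IP libraries 4.10%, 4.70% and 4.56%, a ratio of 1.20. The KD6 gap was the smallest of the conditions, although its libraries still did not overlap.

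miR-99b-3p, the other arm of the same hairpin, had shares of 0.164%, 0.173% and 0.164% in the WT inputs and 0.190%, 0.175% and 0.230% in the WT IP. All IP values were higher, by a mean ratio of 1.19. The ratio was 1.38 in KD3, with inputs between 0.123% and 0.130% and IP libraries between 0.170% and 0.184%. In KD6 the IP libraries, between 0.122% and 0.143%, lay below the inputs, between 0.144% and 0.164%.

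**Figure D2:**
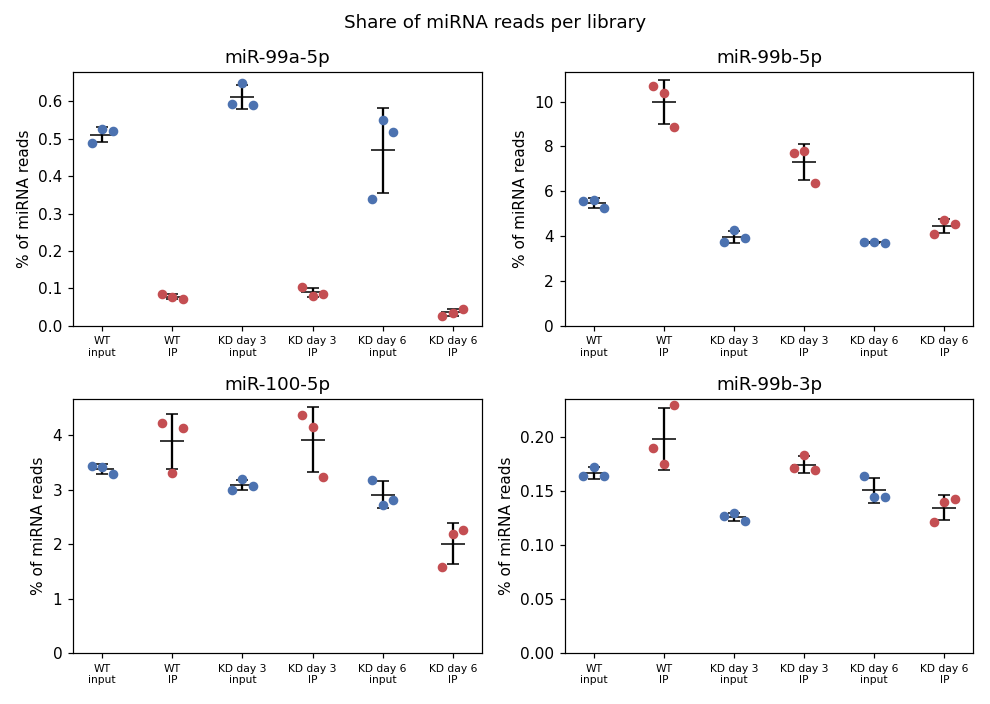
Share of miRNA reads (y axis, percent, starting at 0) of the 4 abundant members in each of the 18 libraries, with inputs in blue, IP libraries in red, and the mean and SD of 3 libraries in black. miR-99a-5p has a mean of 0.511% in the WT input and 0.0776% in the WT IP, while the other 3 members stay within a factor of 1.84 of their inputs.

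The other 2 arms are passengers near the limit of detection. miR-99a-3p had 12, 21.2 and 23.5 counts in the WT inputs and 0, 1.5 and 0 in the WT IP. Summed over each group, its IP to input ratio, each corrected for the miRNA reads of the group, was 0.0721 in WT (exact 95% interval 0.00850 to 0.273) and 0.0743 in KD3 (0.00880 to 0.278). Both ratios were taken from rounded sums. Rounding raised the summed IP counts of 1.5 in WT and lowered those of 2.5 in KD3 to the same whole number. The closeness of the WT and KD3 ratios therefore comes from the rounding. From unrounded sums the WT ratio would be lower and the KD3 ratio higher. In KD6 all IP libraries were at 0 against 0, 9.8 and 41.8 counts in the inputs. With 3 counts over the group as the floor, the KD6 IP was at least 16.1-fold lower, and the exact interval of the ratio reached up to 0.0786. Replicate C held 41.8 of the 51.6 input counts, and without it the floor gave at least 7.28-fold, with an interval up to 0.200. miR-100-3p had 21, 28.5 and 48 counts in the WT inputs and 5, 1 and 18 in the WT IP, for a ratio of 0.503 (0.308 to 0.793). Its ratio was 1.53 (0.939 to 2.46) in KD3 and 0.668 (0.409 to 1.08) in KD6 (0.686 without the shallow library), and its groups overlapped in each condition. All these IP to input ratios and their intervals use rounded sums that pool the 3 libraries of a group. The intervals therefore leave out the spread between libraries. The reads carry no molecular identifiers, so copies of 1 molecule count as separate reads and the intervals may be too narrow. In the WT IP of replicate C, the 18 counts of miR-100-3p came from 3 distinct sequences. The intervals are descriptions and no test.

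The same contrast in edgeR, fitted across 547 miRNAs with TMM scaling, gave log2 ratios of IP to input for miR-99a-5p of -2.21 ± 0.18 (SE) in WT, -2.40 ± 0.19 in KD3 and -2.78 ± 0.19 in KD6. Those of miR-100-5p were 0.71 ± 0.19, 0.71 ± 0.19 and 0.34 ± 0.19. Those of miR-99b-5p were 1.37 ± 0.16, 1.24 ± 0.16 and 1.16 ± 0.16, and those of miR-99b-3p were 0.76 ± 0.18, 0.82 ± 0.18 and 0.73 ± 0.18. The median miRNA had 0.32 in WT, 0.18 in KD3 and 0.21 in KD6, so relative to it miR-99a-5p stood at -2.54, -2.58 and -2.99. miR-100-5p stood at 0.38, 0.53 and 0.13 above it. The scaling sets the level of all these values, because the median miRNA lay between -0.38 and 0.41 in WT and between -1.14 and 0.47 in KD6 over the scalings and filters tried. The log2 ratio of miR-99a-5p stayed at -2.14 or below in WT and at -2.60 or below in KD6 throughout. In contrast, that of miR-100-5p lay between -0.13 and 0.78 in WT and between -0.87 and 0.48 in KD6, that of miR-99b-3p lay between -0.08 and 0.83 in WT and between -0.49 and 0.90 in KD6, and that of miR-99b-5p in KD6 lay between -0.07 and 1.33, so the direction of these depends on the scaling, and the directions above are those of shares of miRNA reads. Without the shallow library the KD6 log2 ratios were -3.64 ± 0.18 for miR-99a-5p, -0.20 ± 0.14 for miR-100-5p, 0.52 ± 0.12 for miR-99b-5p and 0.16 ± 0.14 for miR-99b-3p. The median miRNA then lay at -0.53, and relative to it these were -3.11, 0.33, 1.06 and 0.70. In rank from the highest, miR-99a-5p was at 445 of 547 in WT, 444 in KD3 and 451 in KD6, and miR-100-5p was at 238, 227 and 267.

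Libraries of the 2 groups did not overlap, in shares of miRNA reads, for 4 of 6 members in WT, 5 in KD3 and 4 in KD6. Among all 547 miRNAs they did not overlap for 73.3% in WT, 72.9% in KD3 and 55.9% in KD6. Since the family was chosen with this contrast in view, nothing is read from these counts. They were 5 of 6 members and 76.8% of all miRNAs in KD6 without the shallow library.

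**Figure D3:**
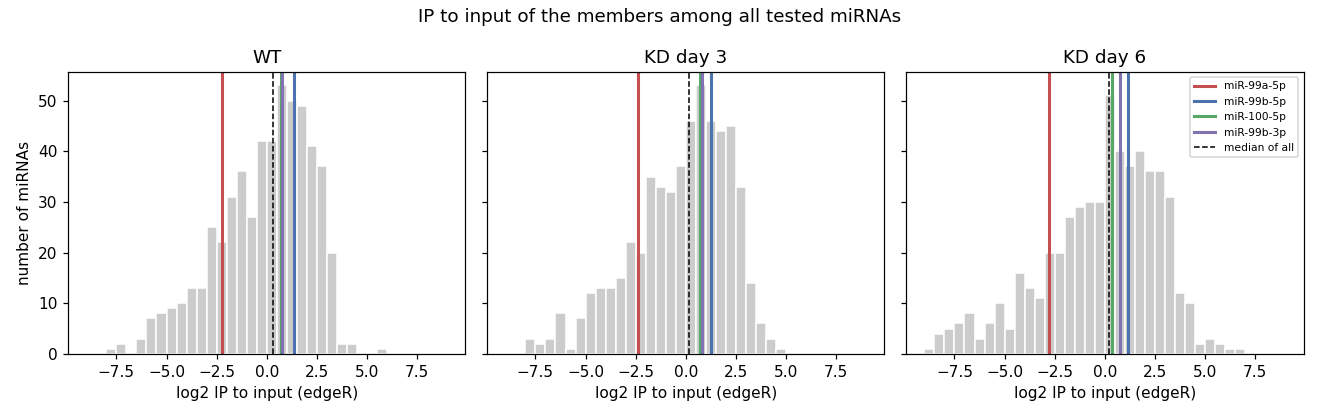
Distribution of the fitted log2 ratio of IP to input over 547 miRNAs (x axis, log2; y axis, number of miRNAs) in WT, KD3 and KD6, with the 4 abundant members as coloured lines and the median miRNA dashed. miR-99a-5p lies in the lower part of each distribution, at -2.21, -2.40 and -2.78, and under this scaling the other 3 members lie above the median.

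A ratio of 2 members within 1 library does not depend on how libraries are scaled, and it measures the difference between the pair directly. In the WT inputs miR-99a-5p had 14.2%, 15.4% and 15.9% as many reads as miR-100-5p in replicates A, B and C. In the WT IP it had 2.0%, 2.31% and 1.74% as many. The KD3 inputs gave 19.8%, 20.3% and 19.2% and the KD3 IP libraries 2.38%, 1.93% and 2.62%. The KD6 inputs gave 10.6%, 20.2% and 18.5%, of which the lowest is the shallow library, and the KD6 IP libraries gave 1.73%, 1.59% and 2.02%. Each IP library lay below each input library of any condition. After IP the ratio was lower by 7.54-fold in WT (log2 -2.91 ± 0.13 SE), 8.64-fold in KD3 (-3.11 ± 0.13) and 8.94-fold in KD6 (-3.16 ± 0.31). The KD6 value was 10.9-fold without the shallow library. Between any IP and any input library of the same condition the log2 difference lay from -3.19 to -2.61 in WT, from -3.40 to -2.88 in KD3 and from -3.66 to -2.40 in KD6.

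The count of a read that matches several miRNAs was divided among them. Of the 18 library values, 17 of miR-99a-5p (94.4%) and 15 of miR-100-5p (83.3%) were not whole numbers, against 47.0% of nonzero values over all rows. The value was 83.3% for miR-99b-5p, 72.2% for miR-99b-3p, 58.3% for miR-99a-3p and 33.3% for miR-100-3p. A high share was thus not particular to the pair of miR-99a-5p and miR-100-5p. A read that ends before base 16 cannot tell this pair apart. Read lengths were not examined, so it is not known whether the 2 members share reads, or how many. How far any sharing moves their ratio was not tested.

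The other 2 ratios had smaller gaps between input and IP. miR-99b-5p had 1.62 ± 0.0251 reads per read of miR-100-5p in the WT input and 2.61 ± 0.503 in the WT IP (SD, n = 3). In KD3 the values were 1.29 ± 0.0437 and 1.87 ± 0.106, and in KD6 1.29 ± 0.102 and 2.26 ± 0.310. Each IP library was higher than each input library of its condition, by 1.59-fold, 1.46-fold and 1.75-fold between the mean log2 values (1.67-fold in KD6 without the shallow library). miR-99b-5p had 32.8 ± 1.03 reads per read of its passenger miR-99b-3p in the WT input and 51.3 ± 11.3 in the WT IP. The same ratio was 31.4 ± 1.67 and 41.7 ± 3.72 in KD3, and 24.7 ± 1.71 and 33.0 ± 0.946 in KD6. The IP was higher without overlap in all conditions, by 1.28-fold in KD6 without the shallow library.

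**Figure D4:**
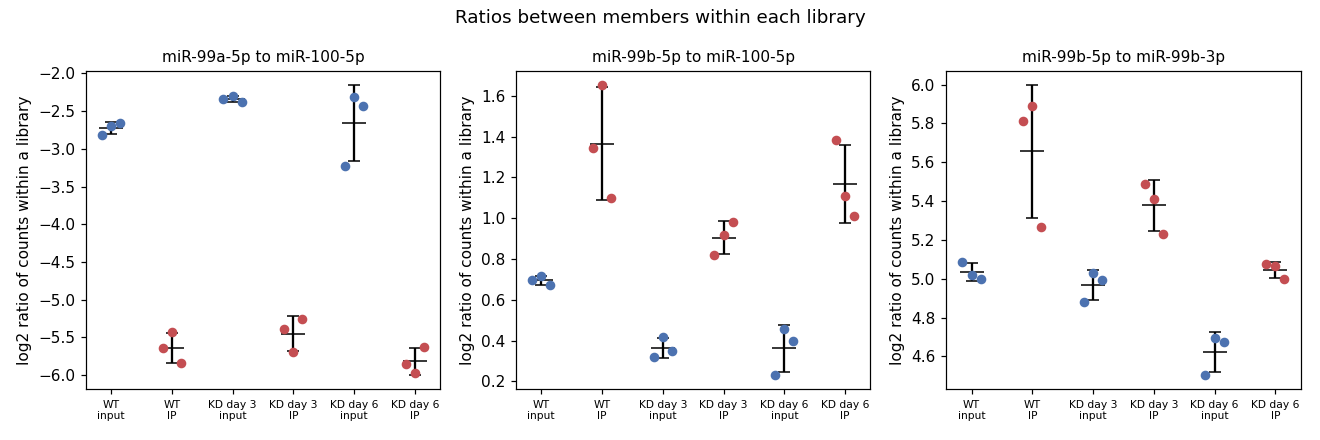
Log2 ratio of the counts of 2 members within each library (y axis; pseudocount 0.5) for miR-99a-5p to miR-100-5p, miR-99b-5p to miR-100-5p and miR-99b-5p to miR-99b-3p, with inputs in blue, IP libraries in red, and the mean and SD of 3 libraries in black. The first ratio is near -2.73 in the WT input and -5.64 in the WT IP, whereas both ratios of miR-99b-5p are higher after IP.

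Other nearly identical pairs are set beside this one. Only miRNAs with a RefSeq sequence and 1 row in the table were paired, so that let-7a-5p and let-7c-5p, with 2 rows each, were left out. Among them 14 pairs had the same length and differed by 1 base, and 7 of these pairs had both members tested. The difference in log2 ratio of IP to input within the pair of miR-100-5p and miR-99a-5p was 2.92 in WT, 3.11 in KD3 and 3.12 in KD6. The next in WT was the pair of miR-27a-3p and miR-27b-3p, which differed by 0.99, 1.05 and 0.45 in size. The pair of miR-30a-5p and miR-30e-5p differed by 0.62 in WT, and that of miR-10a-5p and miR-10b-5p by 0.53. The pair of miR-106a-5p and miR-17-5p reached 2.71 in KD6, where miR-106a-5p had only 0.852 CPM (counts scaled to libraries of equal size), averaged over the 18 libraries. These are descriptions, because the family was selected on this gap.

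The next question is whether the level of the members, or their share in the IP, differed after knockdown of Pus1. In the inputs, no member passed the threshold of an adjusted p under 0.05 in edgeR's quasi-likelihood test in any pair of conditions. The nearest was miR-99b-5p, which was lower in the KD6 than in the WT input by a log2 difference of -0.52 ± 0.16 (relative to the median miRNA, -0.51; edgeR adjusted p = 0.0961). All KD6 libraries, between 3.69% and 3.74%, lay below all WT libraries, between 5.23% and 5.62%. Without the shallow KD6 input of replicate A the log2 difference was -0.70 with an adjusted p of 0.00344, and 4.41% of all miRNAs passed. With DESeq2, by which 5.56% passed, it was -0.57 (adjusted p = 0.0307), and over all alternatives the adjusted p ran from 0.00207 to 0.603. In the same comparison miR-100-5p differed by -0.17 ± 0.19 (adjusted p = 0.809), miR-99a-5p by -0.14 ± 0.18 (adjusted p = 0.825) and miR-99b-3p by -0.11 ± 0.18 (adjusted p = 0.871). These were -0.43, -0.076 and -0.35 without the shallow library (edgeR adjusted p = 0.102, 0.895 and 0.178). Over all miRNAs 2.56% passed in this comparison. The groups did not overlap for 2 of 6 members, miR-99b-5p and miR-100-5p, against 20.7% of all miRNAs, and for 3 of 6 against 48.8% when the shallow library was left out.

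Between the KD3 and WT inputs, miR-99a-5p differed by 0.32 ± 0.18 (relative to the median, 0.40; adjusted p = 0.764), miR-99b-5p by -0.40 ± 0.16 (-0.32; adjusted p = 0.433), miR-99b-3p by -0.33 ± 0.18 (-0.26; adjusted p = 0.764) and miR-100-5p by -0.07 ± 0.19 (0.011; adjusted p = 0.934). The share of miR-99a-5p was 1.20-fold that of WT, and the share of miR-99b-5p was 1.38-fold lower. The libraries did not overlap for 5 of 6 members, of which miR-99a-5p was higher and the other 4 lower, against 35.3% of all miRNAs. Of the 4, miR-100-3p had at most 19.8 counts in a KD3 input. By edgeR 0% of all miRNAs passed, and 40 had an unadjusted p under 0.05, miR-99b-5p among them. In a fit of only these 2 groups, 3 members passed, namely miR-99a-5p (0.37, adjusted p = 0.00317), miR-99b-5p (-0.35, adjusted p = 0.00411) and miR-99b-3p (-0.29, adjusted p = 0.0156), while 14.1% of all miRNAs tested passed in that fit.

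Between the KD6 and KD3 inputs, miR-99a-5p differed by -0.46 ± 0.18 (relative to the median, -0.49; adjusted p = 0.173), and its highest KD6 library, at 0.549%, lay below its lowest KD3 library, at 0.590%. With DESeq2 the difference was -0.56 with an adjusted p of 0.00204, and 10.2% of the miRNAs to which DESeq2 gave an adjusted p passed. miR-99b-3p differed by 0.23 ± 0.18 (adjusted p = 0.585), miR-99b-5p by -0.12 ± 0.16 (adjusted p = 0.766) and miR-100-5p by -0.10 ± 0.19 (adjusted p = 0.845). The libraries did not overlap for 4 of 6 members, against 19.2% of all miRNAs (5 of 6 against 53.0% when the shallow library was left out), and 2.19% of all miRNAs passed the test. Of the 4, miR-99a-5p and miR-99b-5p were lower and miR-99b-3p and miR-100-3p higher. The counts of miR-100-3p in the KD6 inputs were only 1, 11.5 and 35. Without the shallow library, when 6.95% passed, the differences were -0.44 for miR-99a-5p, -0.34 for miR-99b-5p, -0.41 for miR-100-5p and -0.06 for miR-99b-3p (edgeR adjusted p = 0.133, 0.101, 0.101 and 0.855).

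The change in IP to input ratio between conditions was tested as an interaction, and no member passed in any of the 3 tests. Between KD6 and WT, miR-99a-5p had the largest difference of the 4 abundant members, -0.56 ± 0.25 (relative to the median, -0.66; adjusted p = 0.257). miR-100-5p differed by -0.37 ± 0.27 (-0.47; adjusted p = 0.501), miR-99b-5p by -0.21 ± 0.22 (-0.31; adjusted p = 0.655) and miR-99b-3p by -0.02 ± 0.26 (-0.12; adjusted p = 0.987). The differences were -0.72, -0.20, -0.15 and 0.12 in the same order without the shallow library (relative to the median, -0.68, -0.16, -0.11 and 0.16; edgeR adjusted p = 0.115, 0.632, 0.691 and 0.767). Of all miRNAs 0% passed by edgeR, and 98 had an unadjusted p under 0.05, miR-99a-5p among them. With all mapped reads as the library size, which also counts reads outside miRNAs, 3 members passed, with differences of -1.14 for miR-99a-5p, -0.88 for miR-100-5p and -0.76 for miR-99b-5p (adjusted p = 0.0366, 0.0415 and 0.0409). Under that scaling 9.04% of all miRNAs passed, and the median miRNA differed by -0.56.

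Between KD6 and KD3 the differences in ratio were -0.38 ± 0.25 for miR-99a-5p (relative to the median, -0.56; adjusted p = 0.397), -0.37 ± 0.27 for miR-100-5p (-0.55; adjusted p = 0.46), -0.09 ± 0.26 for miR-99b-3p (-0.27; adjusted p = 0.879) and -0.08 ± 0.22 for miR-99b-5p (-0.26; adjusted p = 0.875). Of all miRNAs 0.183% passed. Without the shallow library, when 2.37% passed, they were -0.58, -0.26, -0.01 and -0.07 in the same order (edgeR adjusted p = 0.156, 0.457, 0.998 and 0.862). Between KD3 and WT the differences of the 4 abundant members lay between -0.19 (miR-99a-5p) and 0.062 (miR-99b-3p), with adjusted p = 1.0 for each, while 0% of all miRNAs passed and 17 had an unadjusted p under 0.05. The 2 rare arms passed in none of the 6 comparisons either. Their fitted changes rest on counts at or near 0 and are not given.

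The ratios within libraries were tested between the 6 knockdown and the 3 WT libraries by a two-sided exact permutation test, of which the smallest possible p is 0.0238, with adjustment over 6 tests. The test pools both days and takes all libraries as independent. It does not use the replicate letters, although same-letter deviations correlated between the WT and KD3 inputs (0.20 to 0.609) and between the KD3 and KD6 inputs (0.238 to 0.338). No ratio passed after adjustment. The ratio of miR-99b-5p to miR-100-5p in the inputs was lower in all 6 knockdown libraries than in any WT library, with mean log2 values of 0.36 ± 0.08 (SD) and 0.70 ± 0.02 and a difference of -0.33 (exact permutation p = 0.0238, adjusted p = 0.143). The difference was -0.31 without the shallow library, again without overlap (exact permutation p = 0.0357, adjusted p = 0.107). The difference was -0.33 in KD3 and -0.33 in KD6 taken alone, each without overlap (exact permutation p = 0.1 for both, the smallest that 3 against 3 can give). In the IP the same ratio differed by -0.33 (exact permutation p = 0.119, adjusted p = 0.179). The ratio of miR-99b-5p to its passenger miR-99b-3p differed by -0.24 in the inputs (exact permutation p = 0.0952, adjusted p = 0.179) and by -0.44 in the IP (p = 0.0714 by the same exact test, adjusted p = 0.179). The 2 days differed for this ratio. In KD3 alone it differed from WT by -0.065 in the inputs and -0.28 in the IP, both with overlap. In KD6 alone it was lower than in WT without overlap, by -0.41 in the inputs and -0.61 in the IP. When the shallow library was left out, the input differences from WT in KD6 alone were -0.35 for this ratio and -0.27 for that of miR-99b-5p to miR-100-5p, both without overlap, and over all knockdown inputs the first was -0.18 with overlap (adjusted p = 0.171 by the exact permutation test).

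The ratio of miR-99a-5p to miR-100-5p, on which the IP gap rests, differed in the inputs by 0.23 (exact permutation p = 0.452, adjusted p = 0.543), and the groups overlapped. Without the shallow library the other 5 knockdown inputs, at log2 values from -2.43 to -2.30, all lay above the 3 WT inputs, from -2.82 to -2.65, and the difference was 0.37 (exact permutation p = 0.0357, the smallest that 5 against 3 can give, adjusted p = 0.107). In the KD3 inputs alone it was 0.39 higher, with no overlap with WT. In the IP the difference was 0.0053 (exact permutation p = 1.0, adjusted p = 1.0), made of 0.19 in KD3 and -0.18 in KD6. The IP libraries of all 3 conditions overlapped for this ratio, which lay between 1.59% and 2.62% in all 9.

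The deposited table also gives the number of distinct read sequences for each row. In the WT inputs miR-99a-5p had 482.7, 530.2 and 503.2 distinct sequences and 108 ± 11.6 reads per sequence. In the WT IP it had 111.7, 146.8 and 153 and 29.0 ± 2.13 reads per sequence. miR-99b-3p, whose read numbers in the WT IP were between 7159 and 15340, had 32.2 ± 7.91 reads per sequence there. Both numbers rise with the number of reads.

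The miRNAs encoded beside the members were compared from a list of 10 arms, which left out the passenger of Mir125b-2, and 2 members of the related miR-10 family were added. The KD6 log2 ratios of IP to input given for single miRNAs of the list include the shallow library. The miR-10 miRNAs are encoded in the Hox clusters, and their seed, ACCCUGU, begins with the same letters as that of the miR-99/100 family. Beside Mir99a, let-7c-5p had a log2 ratio of IP to input of 1.61 ± 0.21 in WT, 1.70 ± 0.21 in KD3 and 2.46 ± 0.22 in KD6. Its share was higher after IP in all 3 conditions without overlap, whereas that of miR-99a-5p was lower in all. let-7c-5p has 2 rows in the table, from 2 genes, and only the larger was used, so its values cannot be assigned to the gene beside Mir99a alone. let-7c-1-3p, its passenger, gave 0.41 ± 0.42 in WT.

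Beside Mir99b, let-7e-5p had log2 ratios of 3.09 ± 0.16 in WT, 3.20 ± 0.16 in KD3 and 3.23 ± 0.16 in KD6, and miR-125a-5p 2.50 ± 0.26, 2.54 ± 0.26 and 3.04 ± 0.27. The passengers let-7e-3p and miR-125a-3p had 1.38 ± 0.22 and 1.79 ± 0.25 in WT. Of these 4 neighbours, let-7e-3p lay next to the 1.37 of miR-99b-5p and the other 3 lay above it, and all 4 had higher shares in every WT and KD3 IP library than in the inputs. Beside Mir100, let-7a-5p had 2.38 ± 0.21, 2.64 ± 0.21 and 3.35 ± 0.21. miR-125b-5p had 0.68 ± 0.28, 0.83 ± 0.28 and 0.38 ± 0.28, close to the values of miR-100-5p, and miR-125b-1-3p had 0.17 ± 0.16 in WT. let-7a-2-3p gave -0.91 ± 0.52 in WT. let-7a-5p and miR-125b-5p also have 2 rows each and are made from more than 1 gene. One of the miR-125b-5p genes is Mir125b-2 beside Mir99a, so its values belong to the surroundings of both Mir99a and Mir100.

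miR-10a-5p had 2.55 ± 0.19 in WT, 2.80 ± 0.19 in KD3 and 3.37 ± 0.20 in KD6, and miR-10b-5p 2.02 ± 0.16, 1.88 ± 0.16 and 2.69 ± 0.16. Relative to the median miRNA, the median of the 12 listed was 1.37 in WT, 1.50 in KD3 and 2.07 in KD6. Their libraries did not overlap for 11 of 12 in WT (9 higher in IP, 2 lower), against 73.3% of all miRNAs, for 10 in KD3 (9 and 1), against 72.9%, and for 9 in KD6 (7 and 2), against 55.9%. The KD6 count was 7 higher and 3 lower without the shallow library, against 76.8%, and the median was 1.85. In the 6 tests of input levels and of changes in IP ratio, 0 of the 12 passed by edgeR, against between 0% and 2.56% of all miRNAs. Without the shallow library both miR-10 members were lower in the KD6 than in the KD3 input (miR-10a-5p -0.79, edgeR adjusted p = 0.0069, and miR-10b-5p -0.48, adjusted p = 0.0381), where 6.95% of all miRNAs passed. miR-10a-5p was also lower than in the WT input (-0.76, edgeR adjusted p = 0.0129), where 4.41% passed. miR-10b-5p had a higher IP ratio in KD6 than in KD3 (0.71, edgeR adjusted p = 0.0369), where 2.37% passed.

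**Figure D5:**
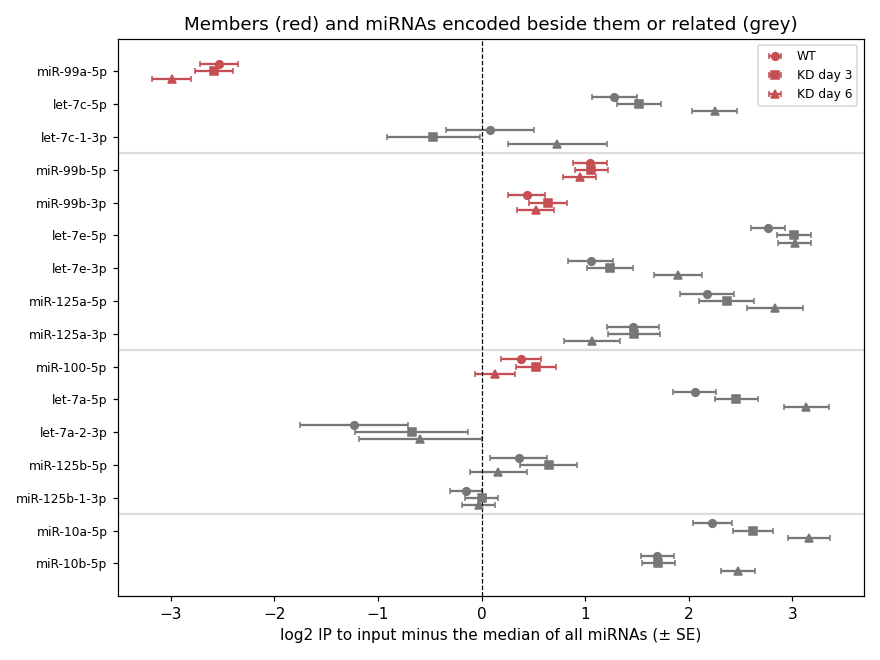
Fitted log2 ratio of IP to input minus the median of all miRNAs (x axis, with SE bars) for 4 members in red and for 12 miRNAs in grey that are encoded beside them or belong to the miR-10 family, with a circle for WT, a square for KD3 and a triangle for KD6. Among the miRNAs drawn, miR-99a-5p stands alone at the left, between -2.99 and -2.54, with let-7c-5p, which has a gene beside Mir99a, between 1.28 and 2.25. The rare arms miR-99a-3p and miR-100-3p are not drawn. The fit placed miR-99a-3p lower still, at -3.45 in WT, on counts at or near 0 in the IP.

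Likeness was measured as Pearson's r of log2 CPM over the 18 libraries, against 144 miRNAs outside the family with a mean of at least 100 CPM. Input and IP libraries form 2 separate sets, so r over all 18 mostly follows the step between them, and r within the 9 inputs and the 9 IP libraries is given beside it. The miRNAs most like miR-99a-5p were miR-199a-5p (r = 0.99; 0.74 in inputs and 0.93 in IP), miR-140-3p (0.99; 0.70 and 0.98) and miR-24-2-5p (0.98; 0.49 and 0.76). The first is among the fibroblast markers, whose summed share was lower in every IP library than in any input. Those most like miR-99b-5p were miR-183-5p (r = 0.95; 0.75 and 0.72), miR-30c-2-3p (0.94; 0.87 and 0.72) and miR-423-5p (0.94; 0.60 and 0.83). For miR-100-5p they were miR-30c-2-3p (r = 0.91; 0.60 and 0.88), miR-134-5p (0.86; 0.47 and 0.79) and miR-28a-3p (0.84; 0.39 and 0.70). Between members, miR-99a-5p and miR-100-5p had r = -0.61 over all libraries, 0.059 within inputs and 0.85 within the IP. miR-99b-5p and miR-100-5p had 0.88, 0.79 and 0.70.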

How the data were processed

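Small RNAs of 18 libraries were analysed, grouped by the labels into WT, KD3 and KD6, each as input and Ψ-IP, with 3 replicates. The authors trimmed the adapter and ran the SeqImp pipeline (version not given in the sources used here) with mm10, Ensembl and miRBase annotations. They deposited estimated counts for each mature miRNA and hairpin, in which reads that match several loci are divided, and, in other columns, estimated numbers of distinct read sequences. For testing, estimated counts were rounded. The row with the total of mapped reads stayed out of tests, and the reads outside miRNA rows were between 5.47% and 38.2% of it.

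The largest row of each miRNA was used, with all miRNA reads as library size. In R 4.3.3, edgeR 4.0.16 (filterByExpr with a minimum count of 10, TMM, glmQLFit and glmQLFTest) was run on 547 miRNAs in 1 model of 6 group means, with Benjamini-Hochberg adjustment over all 547 and a threshold of 0.05. Library depth was between 241109 and 15099781 mapped reads, and the floor is 3 counts. Exact permutation tests used scipy 1.17.1. Alternatives were RLE, upper-quartile or no factors, all mapped reads as size, 2 other filters, summed rows, a replicate block, DESeq2 1.42.0, fits of the compared groups only, and each library left out. The members, gene lists and tests were chosen with earlier results of these data known. All 6 members, 12 neighbours or relatives, and for each 5p member the 3 miRNAs with the highest r are named. Replicate letters were checked for pairing by the correlation of deviations from group means over 188 miRNAs. It was above 0.1 for every letter between the WT and KD3 inputs (0.20 to 0.609) and between the KD3 and KD6 inputs (0.238 to 0.338), not for the other comparisons. Gene positions come from GENCODE annotation of GRCm38, the assembly also named mm10.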

Additional observations from a re-analysis of the deposited data

How the results depend on the processing

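Of the 672 alternative values of relative change for the 4 abundant members, 641 kept the direction and the side of the threshold, 15 passed it and 16 turned direction. The unadjusted log2 change, which moves with the scaling, turned sign in 20 of 240 values under other settings and in 10 of 432 with 1 library left out. The difference between miR-99a-5p and miR-100-5p in log2 ratio of IP to input ran from -2.92 to -2.91 for WT, -3.12 to -3.10 for KD3 and -3.19 to -3.08 for KD6. With 1 library left out the ranges were -3.02 to -2.82, -3.18 to -3.00 and -3.44 to -2.93.

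The number of members that passed went from 0 to 3 for the KD6 against WT change in IP ratio with all mapped reads as library size (9.04% of all miRNAs), to 1 (miR-100-5p) for KD6 against KD3 with no factors (2.38%), and to 3 for the KD3 and WT inputs when only these were fitted (14.1%). For the KD6 and WT inputs it was 1 (miR-99b-5p) with no factors, all mapped reads, summed rows and DESeq2 (2.56%, 2.48%, 4.18% and 5.56% of all miRNAs). It was also 1 with the replicate block (log2 -0.54, edgeR adjusted p = 0.0499, 2.74% of all miRNAs), for groups whose same-letter correlations were 0.261, 0.058 and 0.428 in A, B and C. With 1 library left out it was between 0 and 1. For the KD6 and KD3 inputs it was 1 (miR-99a-5p) with RLE factors (4.02%) and DESeq2 (10.2%). The block changed no other call. In 52 of 336 cases the relative IP to input values moved by more than 1 SD. The causes were not tested.

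Relative changes near 0 turned direction. In the KD3 against WT IP change, leaving out 1 library gave -0.135 to 0.069 for miR-99b-5p and -0.019 to 0.24 for miR-100-5p. In that of KD6 against WT, miR-99b-3p ran from -0.28 to 0.16, and was 0.0033 with no factors. For the KD3 and WT inputs, miR-100-5p ran from -0.018 to 0.024, and was -0.0026 when only these were fitted. For the KD6 and WT inputs, miR-100-5p ran from -0.42 to 0.0076 and miR-99b-3p from -0.34 to 0.076. For the KD6 and KD3 inputs, miR-99b-5p ran from -0.36 to 0.032, miR-100-5p from -0.42 to 0.069 and miR-99b-3p from -0.071 to 0.41. The ratio of miR-99a-5p to miR-100-5p in the IP differed from WT by -0.18 with KD6 alone, and by -0.096 to 0.11 with 1 library left out.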
